A study of Rattus norvegicus with 14 samples.

Results

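The genes described here build and serve the primary cilium. They are the members of the BBSome, the intraflagellar transport (IFT) machinery, the kinesin-2 motor, the ciliary transition zone, the lipidated cargo pathway and the centrosomal base whose symbols match a fixed pattern of names (Bbs, Ift, Cep, Tctn, Nphp, Rpgr, Tulp and Unc119 symbols with Rp1, Arl3, Arl6, Arl13b, Kif3a, Kif3b, Kif3c, Kif17, Ttc8, Mks1 and Cc2d2a). The pattern found 42 of the 16472 genes in the table, and the pattern itself uses no measured value. They comprised 7 genes of the BBSome and its GTPase, 1 BBS chaperonin, 7 IFT-B subunits, 3 kinesins, 4 genes of lipidated cargo transport, 3 genes of the photoreceptor cilium, 7 transition zone genes, 8 centrosomal genes and 2 other tubby family genes. Kif17, Cc2d2a and the IFT-A subunits with Ift symbols were not analysed here.

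RNA was measured in pineal glands, retinas and mixed tissue of Sprague-Dawley rats aged 6 to 8 weeks, housed on a daily cycle of 14 h light and 10 h dark. Each pineal and each retina library was a pool of 10 animals, taken at zeitgeber times (ZT, hours after lights on) 1, 7, 13, 15, 19 and 23, of which the first 3 are in the light. The mixed tissue libraries, at ZT7 and ZT19, were pools of 15 tissues from 3 animals, and the retina is among those tissues. This gave 6 pineal, 6 retina and 2 mixed libraries, with 1 library for each tissue and time. Libraries of a tissue taken at different times stood in as its replicates, so a p-value between tissues measures the spread between these pools, time of day included.

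A primary cilium is a single antenna on a basal body, closed off from the rest of the cell by the transition zone. Kinesin-2 motors carry IFT trains up the axoneme, the BBSome removes membrane proteins, and UNC119 with ARL3 delivers lipid-modified cargo. The photoreceptor outer segment is a modified cilium, and mammalian pinealocytes share an ancestry with photoreceptors and carry a cilium but no stacked outer segment. Human mutations in many of these genes cause retinal degeneration, as in Bardet-Biedl syndrome, nephronophthisis and Leber congenital amaurosis.

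Levels are in FPKM, a fragment count scaled by transcript length and by library size, so levels of different genes can be set side by side. Summed FPKM lay between 152281 (retina ZT23) and 212634 (mixed ZT7), and 8852 to 11399 genes reached 1 FPKM. The number of fragments behind a value is unknown. From the low levels of olfactory receptor genes, 1 fragment in a transcript of 1 kb was worth roughly 0.0228 to 0.0558 FPKM. In a transcript of that length, levels under 0.1 FPKM rest on few fragments. The labels were checked against cell markers. The 4 pinealocyte markers (Tph1, Aanat, Asmt, Crx) summed to 4119 to 4789 FPKM in pineal, 213.8 to 283.3 in retina and 23.8 to 27.0 in mixed libraries, and the 6 photoreceptor markers to 116.6 to 771.7 FPKM in pineal, 14310 to 18860 in retina and 1494 to 1954 in mixed libraries. The mixed libraries held 9.52% to 11.5% of the retina's level of each of these 6 photoreceptor markers. Lens transcripts (Crygc, Mip) stood high in the retina libraries of ZT19 (583.6 FPKM) and ZT1 (244.3 FPKM), against 32.2 to 104.5 in the other retina libraries. Markers of multiciliated cells stayed low in every library, with 4 of 7 markers measured and sums of 1.88 to 4.27 FPKM in pineal, 3.06 to 6.67 in retina and 5.24 to 6.84 in mixed libraries.

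Together the 42 genes made up 0.404% to 0.482% of all FPKM in pineal libraries, 0.880% to 0.944% in retina libraries and 0.191% to 0.203% in mixed libraries, and these ranges do not overlap. Much of that signal came from a few genes. Rp1, Tulp1, Unc119 and Arl3 held 55.5% of it in the pineal gland, 70.3% in the retina and 39.2% in mixed tissue. The median member stood at 6.99 FPKM in the pineal gland, 10.4 in the retina and 5.73 in mixed tissue. In bulk tissue, fewer cells of a type and less RNA per cell cannot be told apart. Of the 42, 40 reached 1 FPKM in at least 2 libraries and were tested. The other 2 were Cep55, a cytokinesis protein of the midbody, with 0.0602 to 0.174 FPKM in pineal, 0 to 0.0375 in retina and 0.620 and 0.929 in mixed libraries, and Tulp2, a tubby family gene, at most 0.22 FPKM in any library.

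**Figure D1:**
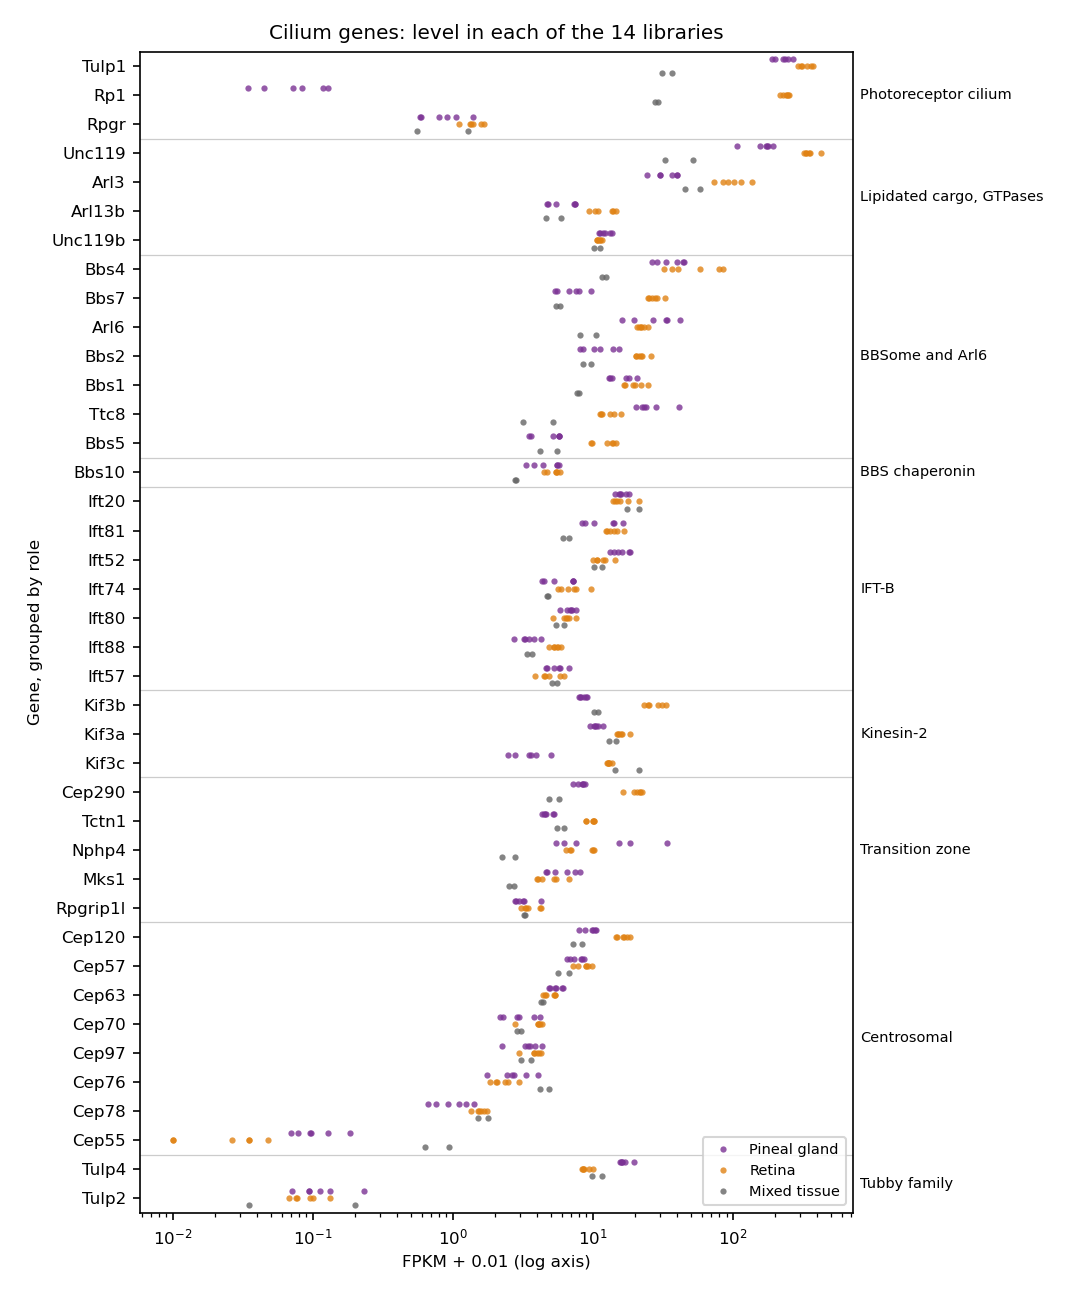
FPKM + 0.01 on a log axis for 40 of the 42 genes (rows, grouped by role), with 1 point per library: 6 pineal, 6 retina and 2 mixed libraries. Rp1 is the gene whose tissues stand farthest apart, at under 0.12 FPKM in the pineal gland and 216 to 252 FPKM in the retina, while Tulp1 and Unc119 exceed 100 FPKM in every pineal and retina library.

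Of the 3 photoreceptor cilium genes, Rp1 stood furthest apart between the tissues. Rp1 (gene ID 681377, rn4 chromosome 5, 15385988 to 15402300), which encodes the axonemal microtubule protein that aligns outer segment discs, had 0.0743, 0.0620, 0.119, 0.109, 0.0346 and 0.0244 FPKM in the 6 pineal libraries in time order (ZT1 to ZT23). It had 237, 249, 216, 227, 241 and 252 FPKM in the retina libraries and 29.2 and 27.8 FPKM in the mixed libraries. The pineal libraries were near the value of 1 fragment in a transcript of 1 kb and below every retina and mixed library. The length of the Rp1 transcript was not used, so the number of fragments behind its pineal values is unknown. Rp1 entered the test through its retina and mixed libraries alone, since no pineal library reached 1 FPKM, so its values are given as a description with no test. The mixed level of Rp1 was 12% of the retina level, beside the 9.52% to 11.5% of the photoreceptor markers; what share of the mixed signal came from the retina in the pool was not tested.

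Tulp1, a photoreceptor protein needed for moving rhodopsin to the outer segment (gene ID 309900, rn4 chromosome 20, 6592448 to 6604349), was abundant in both tissues. It stood at 227, 246, 237, 270, 190 and 201 FPKM in the pineal libraries in time order, 307, 372, 359, 336, 310 and 291 FPKM in the retina libraries and 36.5 and 31.3 FPKM in the mixed ones. The 3 tissues do not overlap. Differences between tissues are given as log2 of FPKM + 1 with their SE, tested by limma, and a p-value adjusted over all tested genes (Benjamini-Hochberg). The pseudocount of 1 FPKM understates the change of low genes. The pineal level was lower than the retina level (-0.53 ± 0.10, adjusted p = 0.00033) and both exceeded mixed tissue, by 2.71 ± 0.15 in the pineal gland (adjusted p = 1.65e-10) and 3.24 ± 0.15 in the retina (adjusted p = 2.5e-11). Mean FPKM in the pineal gland was 69.4% of the retina's for Tulp1 and 0.0297% for Rp1. Rpgr, the retinitis pigmentosa GTPase regulator of the connecting cilium, was low everywhere, at 0.876 ± 0.307 FPKM in the pineal gland, 1.40 ± 0.20 in the retina (SD, n = 6 each) and 0.908 ± 0.512 in mixed tissue (SD, n = 2). It was lower in the pineal gland than in the retina (-0.37 ± 0.11, adjusted p = 0.0099), but not after quantile normalization (-0.15, adjusted p = 0.14).

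Among the carriers of lipidated cargo, Unc119 led. It encodes the chaperone that binds myristoylated transducin and returns it to the outer segment. Its levels were 175, 177, 173, 193, 108 and 157 FPKM in the pineal libraries from ZT1 to ZT23, 333, 424, 353, 347, 333 and 319 FPKM in the retina libraries and 51.9 and 32.7 FPKM in the mixed libraries. The groups did not overlap, with the retina highest and mixed tissue lowest. The pineal gland was lower than the retina by a log2 difference of -1.11 ± 0.15 (adjusted p = 6.5e-06) and higher than mixed tissue by 1.94 ± 0.21 (adjusted p = 6.2e-07). Its paralogue Unc119b was nearly level, at 12.2 ± 1.0 FPKM in the pineal gland, 11.1 ± 0.3 in the retina (SD, n = 6 each) and 10.7 ± 0.7 in mixed tissue (SD, n = 2), and passed no tissue test as deposited. Arl3, the GTPase that releases cargo from UNC119 inside the cilium, had 24.2 to 40.1 FPKM in pineal, 73.3 to 137 in retina and 58.2 and 45.4 FPKM in mixed libraries. It was the most abundant member in mixed tissue. Arl3 was lower in the pineal gland than in the retina (-1.55 ± 0.16, adjusted p = 3.4e-07) and than in mixed tissue (-0.63 ± 0.22, adjusted p = 0.021), the second difference not passing without the mixed ZT7 library (-0.45, adjusted p = 0.22) or after median ratio scaling (-0.39, adjusted p = 0.051). Arl13b, the exchange factor that activates ARL3, had 6.18 ± 1.36 FPKM in the pineal gland against 12.1 ± 2.2 in the retina (SD, n = 6 each; -0.88 ± 0.14, adjusted p = 4.7e-05).

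Across the tested members, 23 of 40 differed between pineal gland and retina, 5 higher and 18 lower in the pineal gland, where 68.9% of all 11656 tested genes differed (36.9% higher and 32% lower). Their median difference was -0.27, against 0.03 over all genes. These counts include 2 members, Rp1 among them, that reached 1 FPKM in no library of at least 1 tissue and so entered the test through the tissues where they were high. All pineal libraries lay above all retina libraries for 2 members (25.6% of all genes) and below for 15 (24.4% of all genes). Quantile normalization gave a split of 9 higher and 18 lower, and median ratio scaling 5 and 25. Against mixed tissue, 24 members passed in the retina, 23 higher and 1 lower, where 65% of all genes passed (18.4% higher and 46.6% lower). All retina libraries lay above both mixed libraries for 24 members (21.7% of all genes) and below for 3 (48.4% of all genes). In the pineal gland 22 members passed against mixed tissue, 15 higher and 7 lower, where 64.8% of all genes passed (19.8% higher and 45% lower). All pineal libraries lay above both mixed libraries for 14 members (19.9% of all genes) and below for 8 (45.3% of all genes). These splits depended on scaling. For the pineal gland they were 33 and 3 under quantile normalization and 24 and 3 under median ratio scaling, and for the retina 35 and 0, and 32 and 1. Without the mixed ZT7 library the pineal count of lower members was 3. The median of all genes was -0.25 for pineal gland minus mixed tissue as deposited, 0.24 after quantile normalization and -0.04 after median ratio scaling. For retina minus mixed tissue it was -0.30, 0.22 and -0.03 in the same order. The members' medians as deposited were 0.24 for the pineal gland and 0.57 for the retina, both against mixed tissue. Both comparisons use the same 2 mixed libraries.

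**Figure D2:**
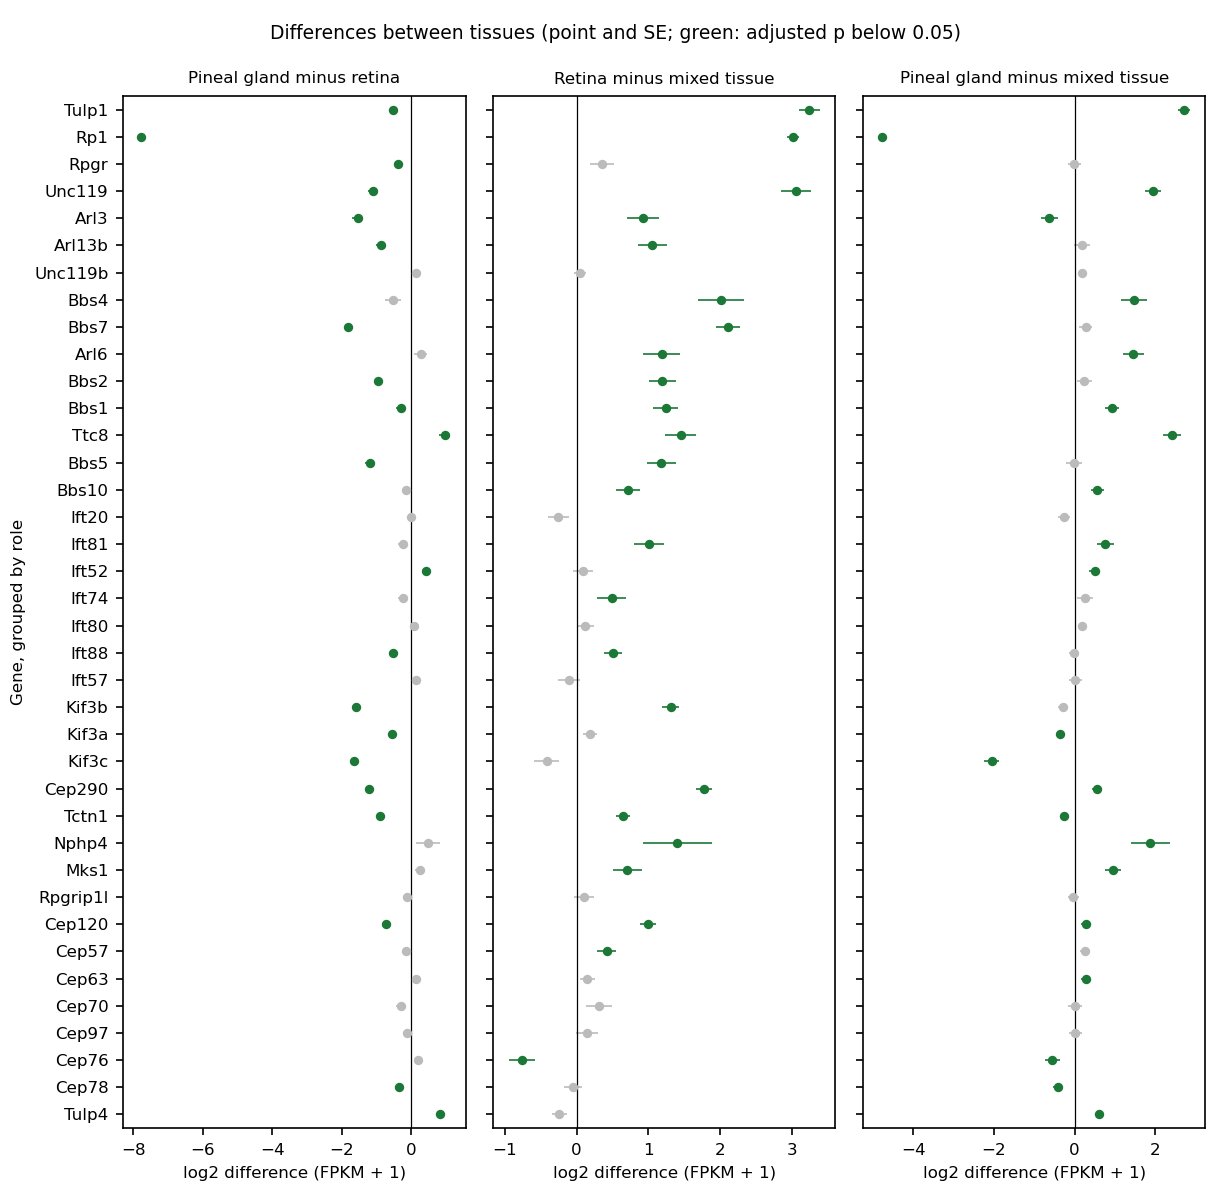
Log2 difference in FPKM + 1 with its SE for 38 of the 40 tested genes in 3 tissue comparisons (green, adjusted p below 0.05; grey, not passing). The retina panel against mixed tissue lies mostly to the right of 0, with Tulp1 farthest at 3.24, and the pineal panel against the retina mostly to the left, with Rp1 farthest at -7.80. Rp1, which entered the test through its retina and mixed libraries alone, is drawn to show its size.

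All 7 genes of the BBSome group were higher in the retina than in mixed tissue (18.4% of all genes), by 1.18 (Bbs5 and Arl6) to 2.10 (Bbs7). Each passed in every alternative run. The BBSome is the coat that ferries membrane proteins out of cilia. Summed FPKM of the 7 genes was 120.1 to 141.4 in pineal, 145.9 to 196.4 in retina and 49.7 to 56.1 in mixed libraries, with no overlap. Between pineal gland and retina the subunits split. Ttc8 (also known as BBS8; gene ID 299246, rn4 chromosome 6, 123117534 to 123171839) had 20.4, 22.5, 23.1, 28.4, 41.0 and 23.9 FPKM in the pineal libraries. It had 13.2, 15.8, 14.1, 11.5, 11.1 and 11.6 FPKM in the retina libraries and 5.16 and 3.14 in the mixed libraries. Every pineal library was above every retina library, and Ttc8 was the member with the largest pineal excess over the retina (0.96 ± 0.15, adjusted p = 5.4e-05). Its excess over mixed tissue was 2.41 ± 0.22 (adjusted p = 9.7e-08).

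Bbs7, a beta-propeller subunit (gene ID 361930, rn4 chromosome 2, 123070273 to 123109862), showed the opposite order. Its pineal libraries held 6.76, 7.61, 9.69, 8.00, 5.38 and 5.52 FPKM, its retina libraries 26.4, 32.5, 25.3, 27.8, 24.8 and 28.7, and its mixed libraries 5.84 and 5.42. The pineal range overlapped that of mixed tissue and lay below every retina library (-1.83 ± 0.12, adjusted p = 1.9e-09). Bbs5, a subunit that binds phosphoinositides, and Bbs2, another beta-propeller subunit, were likewise lower in the pineal gland than in the retina. Bbs5 averaged 4.91 ± 1.07 FPKM in the pineal gland, against 12.4 ± 2.2 in the retina (-1.19 ± 0.14, adjusted p = 2.1e-06), and Bbs2 averaged 11.2 ± 2.9 and 22.1 ± 2.1 FPKM in the same tissues (SD, n = 6 each; -0.95 ± 0.13, adjusted p = 1.4e-05). Bbs7, Bbs5 and Bbs2 did not pass against mixed tissue in the pineal gland (0.28, -0.01 and 0.24). Bbs7 and Bbs2 did pass there after median ratio scaling (0.48 and 0.46) and quantile normalization (0.81 and 0.55), and Bbs5 after the second (0.65, adjusted p = 0.0053).

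Bbs4, a TPR subunit, averaged 36.1 ± 7.9 FPKM in the pineal gland, 55.3 ± 22.5 in the retina (SD, n = 6 each) and 12 ± 0.6 in mixed tissue (SD, n = 2). Its difference between pineal gland and retina missed the threshold (-0.53 ± 0.23, adjusted p = 0.0501). That call sits at the threshold: it passed without the pineal library of ZT1 or ZT23 or the retina library of ZT7, ZT13 or ZT15 (adjusted p 0.0152 to 0.043). Bbs1, mutated most often in human Bardet-Biedl syndrome, averaged 16.0 ± 3.2 FPKM in the pineal gland, against 19.9 ± 3.1 in the retina (SD, n = 6 each; -0.31 ± 0.12, adjusted p = 0.037). The Bbs1 call was lost without the pineal library of ZT13, ZT15 or ZT19 or the retina library of ZT1, ZT7, ZT13 or ZT15 (adjusted p 0.0542 to 0.0869). Arl6, the GTPase that recruits the BBSome to membranes, had 16.1 to 41.6 FPKM in pineal libraries, 20.6 to 24.9 in retina libraries and 10.6 and 8.11 in mixed libraries. It exceeded mixed tissue in the pineal gland (1.46 ± 0.26, adjusted p = 0.00013), likewise in the retina (1.18 ± 0.26, adjusted p = 0.00086) and did not pass between them (0.27, adjusted p = 0.19; without pineal ZT23 0.42, adjusted p = 0.021). Bbs10, a chaperonin-like protein that helps assemble the BBSome, averaged 4.71 ± 1.03 FPKM in the pineal gland, 5.24 ± 0.52 in the retina (SD, n = 6 each) and 2.80 ± 0.04 in mixed tissue (SD, n = 2). It was above mixed tissue in both (0.57 ± 0.16, adjusted p = 0.0063, and 0.71 ± 0.16, adjusted p = 0.0013).

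The IFT-B subunits form the trains that enter the cilium. Summed FPKM of the 7 genes was 55.3 to 76.5 in pineal, 57.2 to 81.2 in retina and 52.4 to 59.9 in mixed libraries, which overlap. Of the 7, 2 passed between pineal gland and retina, where 68.9% of all genes did. Ift52, a core subunit, averaged 15.8 ± 2.0 FPKM in the pineal gland, against 11.6 ± 1.6 in the retina (0.41 ± 0.10, adjusted p = 0.0016), and Ift88, whose disruption shortens cilia in the mouse, 3.46 ± 0.54 and 5.40 ± 0.36 FPKM in the same tissues (SD, n = 6 each; -0.53 ± 0.09, adjusted p = 5.7e-05). Ift81, whose product binds tubulin together with that of Ift74, averaged 11.9 ± 3.3 FPKM in the pineal gland, 14.0 ± 1.6 in the retina and 6.42 ± 0.39 in mixed tissue, above mixed tissue in both (0.76, adjusted p = 0.0042, and 1.01, adjusted p = 0.0005). Ift74 was above mixed tissue in the retina (0.49 ± 0.20, adjusted p = 0.045), a call lost without the pineal library of ZT1, the retina library of ZT7, ZT13, ZT15 or ZT23 or either mixed library (adjusted p 0.0514 to 0.163). Ift20, the subunit that also sits at the Golgi, was the most abundant at 16.1 ± 1.4 FPKM in the pineal gland, 16.3 ± 2.9 in the retina and 19.5 ± 2.8 in mixed tissue. Ift20, Ift57 and Ift80 passed no tissue test as deposited (Ift20 was lower in the retina than in mixed tissue without retina ZT7, -0.33, adjusted p = 0.021). Ift57 had 4.60 to 6.78 FPKM in pineal and 3.85 to 6.18 in retina libraries, and Ift80 5.84 to 7.55 and 5.19 to 7.53 FPKM.

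All 3 kinesin-2 genes were lower in the pineal gland than in the retina, where 32% of all genes were. KIF3A pairs with KIF3B or KIF3C in the motor that drives IFT trains outward. Kif3b had 8.87, 8.11, 8.67, 8.16, 7.98 and 9.11 FPKM in the pineal libraries, against 33.2, 29.3, 23.1, 24.9, 25 and 31.2 FPKM in the retina libraries and 10.8 and 10.3 FPKM in the mixed libraries. Every pineal library was below every other library, with a difference to the retina of -1.59 ± 0.09 (adjusted p = 2.3e-10) and one to mixed tissue that did not pass (-0.28 ± 0.12, adjusted p = 0.054). The second passed without pineal ZT23 or retina ZT1 or ZT13 (adjusted p 0.0372 to 0.0493). Kif3c (gene ID 85248, rn4 chromosome 6, 26342388 to 26381233), expressed mainly in neurons, had 3.59, 5.01, 3.91, 3.47, 2.45 and 2.76 FPKM in the pineal libraries. It had 12.6 to 13.7 FPKM in the retina libraries and 21.4 and 14.4 in the mixed libraries. The pineal gland was lower than the retina (-1.65 ± 0.12, adjusted p = 1.2e-08) and than mixed tissue (-2.06 ± 0.18, adjusted p = 4.5e-08). Kif3a, the shared subunit, differed less, with 10.6 ± 0.8 FPKM in the pineal gland, against 15.9 ± 1.2 in the retina (SD, n = 6 each; -0.55 ± 0.07, adjusted p = 3.2e-06). It averaged 13.9 ± 1.2 FPKM in mixed tissue (SD, n = 2), and the pineal gland was lower there too (-0.36 ± 0.10, adjusted p = 0.0037). That call was lost after quantile normalization (-0.15, adjusted p = 0.071) and median ratio scaling (-0.13, adjusted p = 0.13), and without the mixed ZT7 library (-0.28, adjusted p = 0.092).

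Among the transition zone genes, Cep290 and Tctn1 were lower in the pineal gland than in the retina. Cep290, which links membrane and microtubules at the transition zone and is mutated in Leber congenital amaurosis, had 7.22 to 8.74 FPKM in pineal libraries, 16.5 to 22.4 in retina libraries and 5.68 and 4.85 in mixed libraries. The groups did not overlap, and the pineal gland was lower than the retina (-1.22 ± 0.08, adjusted p = 2.3e-09) and higher than mixed tissue (0.55 ± 0.11, adjusted p = 0.0005). Tctn1, a tectonic of the transition zone membrane complex, followed with 4.72 ± 0.40 FPKM in the pineal gland, against 9.69 ± 0.59 in the retina (SD, n = 6 each; -0.90 ± 0.07, adjusted p = 1.5e-08). Against mixed tissue the pineal value of Tctn1 was -0.26 (adjusted p = 0.03) as deposited but 0.32 (adjusted p = 0.0091) after quantile normalization. The call was also lost without pineal ZT7 (adjusted p = 0.0516), mixed ZT7 (0.263) or mixed ZT19 (0.0511).

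Nphp4, a nephronophthisis gene, averaged 14.5 ± 10.9 FPKM in the pineal gland, 8.36 ± 1.81 in the retina (SD, n = 6 each) and 2.50 ± 0.39 in mixed tissue (SD, n = 2). Its pineal libraries spanned 5.43 to 33.8 FPKM, and the difference to the retina did not pass (0.47 ± 0.34, adjusted p = 0.23). The difference to mixed tissue did (1.88 ± 0.48, adjusted p = 0.0032 in the pineal gland, and 1.40 ± 0.48, adjusted p = 0.019 in the retina). The retina call was lost without mixed ZT7 (adjusted p = 0.118) or mixed ZT19 (0.0656). Mks1, a Meckel syndrome gene, stood at 6.12 ± 1.47 FPKM in the pineal gland, 4.96 ± 1.07 in the retina and 2.61 ± 0.13 in mixed tissue, above mixed tissue in both (0.95, adjusted p = 0.00067, and 0.70, adjusted p = 0.0064; the retina call was lost without mixed ZT19, adjusted p = 0.053). Rpgrip1l, a scaffold of the transition zone, had 2.78 to 4.28 FPKM in pineal and 3.06 to 4.26 in retina libraries and passed no tissue test as deposited.

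Of 7 tested centrosomal genes, 2 (28.6%) were lower in the pineal gland than in the retina, close to the 32% of all genes. Cep120, a centriole elongation factor, had 8.00 to 10.5 FPKM in pineal, 14.6 to 18.3 in retina and 8.31 and 7.18 in mixed libraries (pineal gland minus retina -0.72 ± 0.08, adjusted p = 1.2e-06). Cep78, at 1.01 ± 0.29 FPKM in the pineal gland, against 1.56 ± 0.15 in the retina (SD, n = 6 each), was the other one that passed (-0.36 ± 0.09, adjusted p = 0.0022; after quantile normalization -0.14, adjusted p = 0.095). Cep76, which limits centriole duplication, was the 1 member lower in the retina than in mixed tissue, with 2.27 ± 0.41 FPKM in the retina (SD, n = 6) and 4.53 ± 0.47 in mixed tissue (SD, n = 2; -0.76 ± 0.19, adjusted p = 0.002; after quantile normalization -0.14, adjusted p = 0.51). The sum of 3 proliferation markers was 2.17 to 2.54 FPKM in pineal, 0.673 to 1.43 in retina and 9.33 and 10.5 in mixed libraries; its part in the Cep76 and Cep55 levels was not tested. Cep57, Cep63, Cep70 and Cep97 stood between 2.15 and 9.84 FPKM in every pineal and retina library and none passed between those tissues, Cep70 closest to it (-0.30 ± 0.13, adjusted p = 0.051; it passed without pineal ZT13 or ZT15 or retina ZT23, adjusted p 0.0139 to 0.0263). Tulp4, a tubby family member of unsettled function, was higher in the pineal gland, with 15.5 to 19.6 FPKM in pineal, 8.40 to 10.1 in retina and 11.6 and 9.83 in mixed libraries (pineal gland minus retina 0.84 ± 0.07, adjusted p = 6.5e-08).

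Whether fragments were assigned by strand is not given in the sources used here. The fragments of 5 members and of the genes they overlap in rn4 cannot be told apart: Arl13b with Stx19, Cep290 with RGD1307947, Cep63 with Anapc13, Ift74 with Lrrc19, and Tulp2 with Nucb1. Lrrc19 was at 3.01 FPKM in mixed tissue and under 0.03 FPKM in pineal gland and retina, and Anapc13 at 34.5, 26.0 and 38.9 FPKM in pineal gland, retina and mixed tissue.

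A 24-h cosine was fitted to each gene in each tissue to find members that vary over the day. Pineal and retina libraries shared an error estimate, so a p-value for a pineal rhythm also uses the spread of the retina libraries. In the pineal gland 15 of 40 members passed (adjusted p below 0.05), where 20.7% of 10416 tested genes did. The fitted peak fell in the light for 13 (14.1% of all genes) and in the dark for 2 (6.61% of all genes), and 12 of the 13 peaked between ZT7.5 and ZT13 (10.2% of all genes). Those 12 ran from ZT7.85 (Kif3c) to ZT12.5 (Bbs2), close to the bounds of that window, so its shares are a description with no test. The interval from ZT7 to ZT13 holds no library, and a fitted peak inside it comes from the curve. Of the 13 members with a fitted peak in the light, Arl6, Bbs2, Ift81, Arl13b and Cep78 had their highest pineal library at ZT15, in the dark. The others of the 13 had theirs in the light. The median fitted peak-to-trough range was 0.52 over the members and 0.39 over all genes. With 6 libraries a tissue the count was unstable: it was 8 after quantile normalization, 11 after median ratio scaling, 4 with the pineal libraries fitted alone, 10 without pineal ZT13, 6 without pineal ZT23 and 18 without pineal ZT7. Arl6, Bbs2, Bbs4 and Nphp4 passed in each of these and in every other alternative run.

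Nphp4 had the largest rhythm of the set (gene ID 313749, rn4 chromosome 5, 169711038 to 169797486). Its pineal level was 18.3 FPKM at ZT1, 7.57 at ZT7, 5.43 at ZT13, 6.21 at ZT15, 15.5 at ZT19 and 33.8 at ZT23. The 3 libraries from ZT19 to ZT1 were all above the 3 from ZT7 to ZT15. The cosine spanned 2.30 ± 0.21 log2 units from trough to peak, with the peak at ZT23.1 (adjusted p = 0.00027). In the retina Nphp4 had 9.80, 6.42, 6.83, 6.93, 10.0 and 10.2 FPKM at the same times, a fitted range of 0.73 that did not pass (adjusted p = 0.18). The rhythms differed between the tissues (adjusted p = 0.027), and this call did not survive leaving out pineal ZT13 or a single retina library, whichever it was (adjusted p 0.0541 to 0.112).

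Bbs4 (gene ID 300754, rn4 chromosome 8, 63153456 to 63189904) was the 1 member that passed in the retina as well, where 1.02% of all genes did. It had 43.8, 33.2, 26.2, 28.7, 39.8 and 44.8 FPKM in the pineal libraries from ZT1 to ZT23. In the retina libraries it had 79.7, 40.3, 32.3, 36.8, 58.1 and 84.4 FPKM. Both tissues were lowest at ZT13 and highest at ZT23, and the retina was above the pineal gland at each time. The pineal curve had a range of 0.76 ± 0.09 and a peak at ZT23.8 (adjusted p = 0.0014), and the retinal curve a range of 1.42 ± 0.09 and a peak at ZT23.5 (adjusted p = 0.00065). The difference between the 2 rhythms passed (adjusted p = 0.041) but not with pineal ZT1, ZT13, ZT15 or ZT23 left out, nor with each retina library left out in turn (adjusted p 0.0556 to 0.146). Retina lens transcripts were highest at ZT19 and ZT1. Without both of those libraries Bbs4 still passed in both tissues, and no member passed the test of a difference. That run leaves few retina libraries for the curve and takes most of its error from the pineal libraries. The part of lens tissue in these values was not tested.

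**Figure D3:**
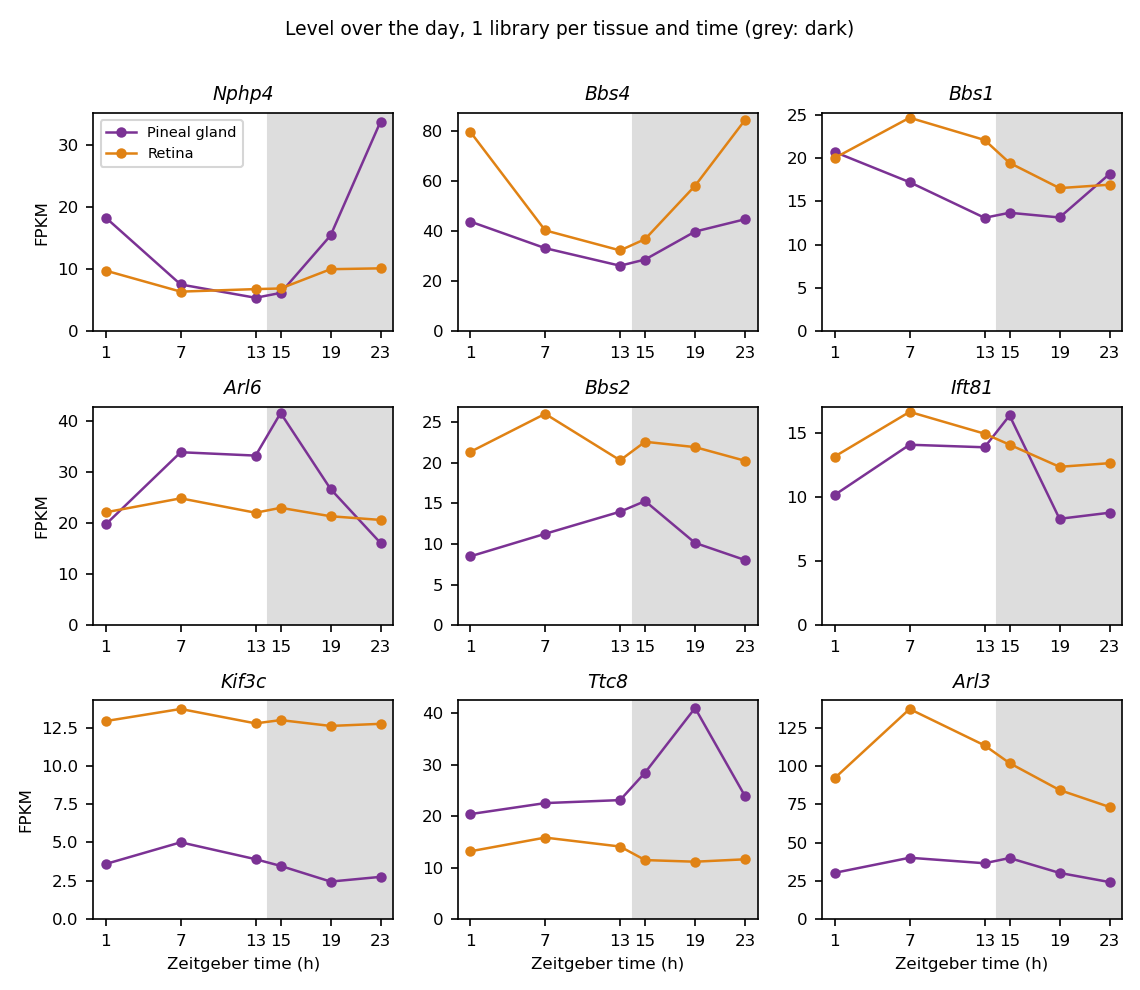
FPKM of 9 cilium genes against zeitgeber time (hours) in the 6 pineal and 6 retina libraries, 1 library per point, with the dark phase in grey and axes from 0. Nphp4 and Bbs4 are low at ZT13 and high at ZT23, Arl6, Bbs2 and Ift81 are highest in the pineal gland at ZT15, and pineal Ttc8 has its highest value, 41.0 FPKM, at ZT19.

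Arl6, Bbs2 and Bbs7 had pineal peaks about opposite to that of Bbs4. Arl6 had 19.8, 33.9, 33.2, 41.6, 26.7 and 16.1 FPKM from ZT1 to ZT23, lowest at ZT23, the time at which Bbs4 was highest. Its fitted range was 1.12 ± 0.17 with a peak at ZT11.8 (adjusted p = 0.0042), and its retina libraries kept within 20.6 to 24.9 FPKM. Bbs2 had 8.47, 11.2, 14.0, 15.3, 10.1 and 8.02 pineal FPKM at the same times (range 0.80 ± 0.12, peak at ZT12.5, adjusted p = 0.0048). Bbs7 had its fitted peak at ZT10.3 (range 0.65, adjusted p = 0.037), a call lost without pineal ZT13, ZT15 or ZT23 or retina ZT15, ZT19 or ZT23 (adjusted p 0.0527 to 0.156). Bbs1 ran earlier, with 20.7, 17.2, 13.1, 13.7, 13.2 and 18.2 pineal FPKM and a peak at ZT2.99 (range 0.63 ± 0.11, adjusted p = 0.0085). In the retina Bbs1 had 20, 24.7, 22.1, 19.5, 16.5 and 16.9 FPKM, with a fitted peak at ZT8.12 that did not pass (adjusted p = 0.079). The Bbs1 rhythms differed between tissues (adjusted p = 0.038), but not with pineal ZT1, ZT13 or ZT23 or each retina library in turn left out (adjusted p 0.0707 to 0.136). With Nphp4 and Bbs4 this made 3 of 40 members with a tissue difference in rhythm, where 4.95% of all genes had one. Bbs5 (range 0.61, adjusted p = 0.069) and Ttc8 (range 0.76, adjusted p = 0.079) did not pass; without pineal ZT7 both did, Ttc8 with a range of 1.68 (adjusted p = 0.0047) and Bbs5 with 0.68 (adjusted p = 0.048). Bbs5 also passed without pineal ZT19 or retina ZT7 (adjusted p 0.0497 and 0.0466).

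The remaining rhythmic members had fitted peaks in the light. Ift81 had 10.2, 14.1, 13.9, 16.4, 8.30 and 8.78 pineal FPKM from ZT1 to ZT23 (range 0.85 ± 0.17, peak at ZT10.3, adjusted p = 0.015), and its partner Ift74 5.25, 7.17, 7.23, 7.22, 4.50 and 4.34 FPKM (range 0.75 ± 0.16, peak at ZT10.0, adjusted p = 0.021). Both were lowest at ZT19 or ZT23. Mks1 (4.59, 8.13, 6.50, 7.41, 5.36 and 4.70 FPKM; range 0.69, peak at ZT10.2, adjusted p = 0.025) and Kif3c (range 0.81 ± 0.13, peak at ZT7.85, adjusted p = 0.0048) were both highest at ZT7. Arl13b, Bbs10 and Arl3 had fitted ranges of 0.65 to 0.69 with peaks from ZT9.23 to ZT10.3 (adjusted p 0.018 to 0.03). Cep78 had a range of 0.48 (adjusted p = 0.044), lost without any 1 library other than pineal ZT7. Without pineal ZT23 the calls of Ift81, Ift74, Mks1, Arl13b, Bbs10, Arl3, Bbs7 and Cep78 were lost (adjusted p 0.0648 to 0.171). Those of Ift74, Arl13b, Bbs10, Bbs7 and Cep78 were also lost without pineal ZT13 (adjusted p 0.0537 to 0.156), and that of Bbs10 without pineal ZT19 or retina ZT13 or ZT15 (adjusted p 0.0505 to 0.0573). The genes with the steadiest pineal levels were Kif3b (highest over lowest library 1.14), Cep290 (1.21) and Unc119b (1.22).

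The pineal ZT15 library was the highest of its tissue for 14 of 40 members (35%), against 23.4% of all genes tested. It also held the highest pineal sum of the photoreceptor markers (771.7 FPKM, with 116.6 at ZT23). The sum of the pigment epithelium list was highest there too (3578 FPKM, against 672.9 to 1161 at the other times), and nearly all of it was Ttr. Ttr alone reached 3566 FPKM in its highest pineal library. Rpe65 and Best1 of that list were at most 0.0793 and 0.0284 FPKM in the pineal gland, and Rlbp1 kept within 9.38 to 11.5 FPKM. The sum of the multiciliated cell markers was also highest at ZT15 (4.265 FPKM, against 1.876 to 2.975 at the other times). The part of these markers in the members' values was not tested. The retina ZT7 library was the highest of its tissue for 22 of 40 members (55%), against 51.2% of all genes. In the retina 10 of 40 members had an unadjusted p under 0.05, as did 21.6% of all genes, and Arl3 came next after Bbs4, with 92.1, 137, 114, 102, 84.4 and 73.3 FPKM (range 0.86 ± 0.15, peak at ZT8.88, adjusted p = 0.051). It passed without pineal ZT15 or ZT19 (adjusted p 0.0421 and 0.0359).

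**Figure D4:**
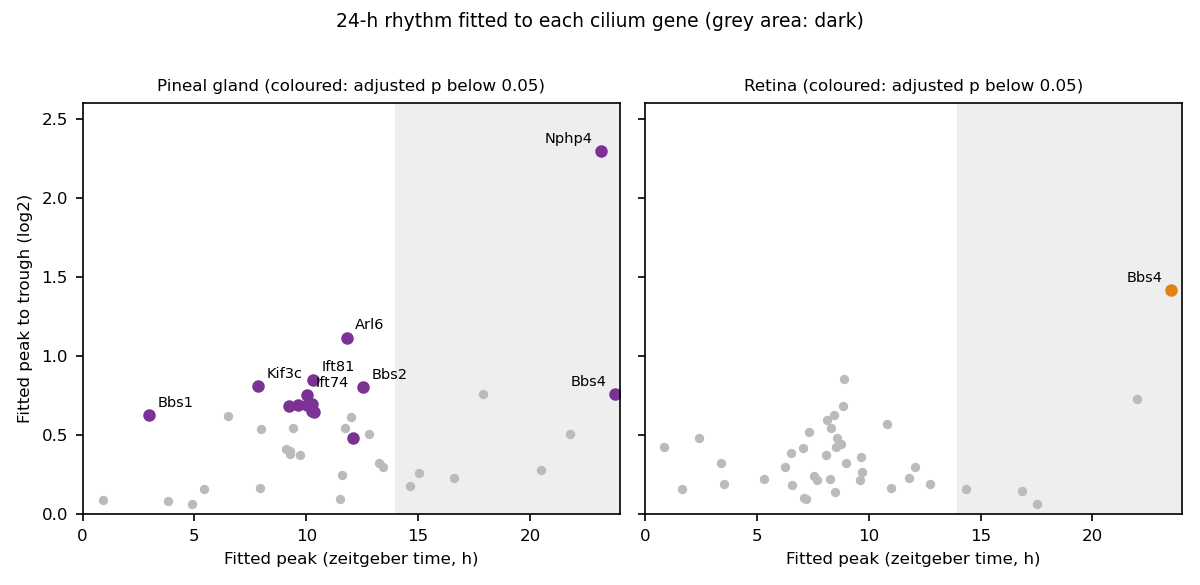
Fitted peak time (zeitgeber hours, dark phase shaded) against fitted peak to trough range (log2) for the 40 tested genes in the pineal gland and the retina; large coloured points passed (adjusted p below 0.05). In the pineal gland 12 of the 15 coloured points lie between ZT7.5 and ZT13, while Nphp4 and Bbs4 lie near ZT23; Bbs4 is the 1 coloured point of the retina.

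Setting the late dark (ZT19 and ZT23) against the light (ZT1, ZT7 and ZT13) gave 0 members higher and 1 lower in the pineal gland by limma (15 at an unadjusted p under 0.05, as for 26% of all genes), where 7.28% of all genes passed (3.04% higher and 4.23% lower). Kif3c was lower in the late dark, at 2.6 ± 0.22 FPKM (SD, n = 2), against 4.17 ± 0.74 FPKM in the light (SD, n = 3; -0.51 ± 0.13, adjusted p = 0.039). It did not pass under either scaling, nor with 9 of the 12 libraries left out one at a time, the exceptions being pineal ZT1 and ZT15 and retina ZT15 (adjusted p 0.0527 to 0.206). Median ratio scaling gave 2 higher members in its place, Cep76 and Unc119b, and leaving out pineal ZT1 gave 7 lower and 1 higher. Nphp4 was at 24.7 ± 13 FPKM in the late dark (SD, n = 2), against 10.5 ± 6.9 in the light (SD, n = 3), and did not pass (1.23, adjusted p = 0.094; without pineal ZT1 it did). In the retina limma called 0 members in either direction, with 1 at an unadjusted p under 0.05 (Arl3, -0.52, adjusted p = 0.33), where 0.0096% of all genes passed and 11.9% had an unadjusted p under 0.05.

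The promoters of the 4 members whose pineal rhythm passed in every alternative are shown because they divide into a pair with a peak near ZT12 (Arl6 and Bbs2) and a pair with a peak near ZT23 (Bbs4 and Nphp4). Each window runs from 250 bases before to 50 bases after the RefSeq start in GRCr8, 5′ to 3′ on the gene's strand: Arl6 chr11:54181108-54181407 on the plus strand, Bbs2 chr19:10915316-10915615 on the plus strand, Bbs4 chr8:68661183-68661482 on the minus strand and Nphp4 chr5:168270823-168271122 on the plus strand. Capitals mark the X-box, the site of RFX factors that regulate ciliary genes, searched as GTNNCC followed after 2 bases by GGNAAC, and its shorter core GTTGCC, both on either strand.
Arl6: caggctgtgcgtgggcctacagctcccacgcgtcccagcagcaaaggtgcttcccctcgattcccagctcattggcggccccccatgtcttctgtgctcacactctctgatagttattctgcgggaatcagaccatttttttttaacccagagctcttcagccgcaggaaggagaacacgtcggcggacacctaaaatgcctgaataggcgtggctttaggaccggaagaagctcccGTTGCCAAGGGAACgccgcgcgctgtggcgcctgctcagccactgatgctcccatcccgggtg
Bbs2: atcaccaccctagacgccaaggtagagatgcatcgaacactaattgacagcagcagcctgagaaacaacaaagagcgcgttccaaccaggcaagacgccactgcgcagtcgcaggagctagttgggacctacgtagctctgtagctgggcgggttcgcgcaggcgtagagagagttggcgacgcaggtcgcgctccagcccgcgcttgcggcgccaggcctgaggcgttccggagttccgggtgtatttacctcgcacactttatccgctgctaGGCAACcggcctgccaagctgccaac
Bbs4: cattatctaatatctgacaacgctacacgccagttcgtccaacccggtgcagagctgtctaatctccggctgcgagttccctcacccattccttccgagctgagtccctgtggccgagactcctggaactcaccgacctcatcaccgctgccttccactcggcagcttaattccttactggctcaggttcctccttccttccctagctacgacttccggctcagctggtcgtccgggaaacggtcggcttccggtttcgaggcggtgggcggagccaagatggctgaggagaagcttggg
Nphp4: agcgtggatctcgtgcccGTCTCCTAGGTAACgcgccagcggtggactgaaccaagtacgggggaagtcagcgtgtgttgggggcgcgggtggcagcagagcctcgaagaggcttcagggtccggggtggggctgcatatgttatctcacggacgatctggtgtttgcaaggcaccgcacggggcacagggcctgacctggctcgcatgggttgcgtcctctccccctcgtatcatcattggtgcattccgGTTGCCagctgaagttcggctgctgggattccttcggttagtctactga

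Arl6 has an X-box that begins 13 bases before the start and contains the core, and Nphp4 has one that begins 232 bases before the start, with a separate core that begins 1 base after the start. Bbs2 has a core that begins 24 bases after the start, and Bbs4 has neither. Of 42 members, 33 matched the promoter table, with 36 promoters. An X-box was found in 8.33% of these (Arl6, Mks1 and Nphp4), against 1.28% of all 33469 promoters, and a core in 44.4% against 12.2%; the X-box can contain the core, so the counts overlap. The photoreceptor factor site TAATCC was in 5.56% of member promoters and 7.17% of all, the cAMP response element TGACGTCA in 2.78% and 1.83%, and the E-box CACGTG in 8.33% and 6.42%. These matches describe letters in a window and do not show that a factor binds.

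Genes of the same pathways outside the pattern of names were counted from lists of 97 symbols, of which 72 were measured. Between pineal gland and retina 14 were higher and 29 lower of 63 tested, where 36.9% of all genes were higher and 32% lower. Of the 63, 10 reached 1 FPKM in no library of at least 1 tissue, and the counts include them. The other IFT and dynein-2 genes, which include subunits of the IFT-A complex that returns trains to the cell, were lower in the pineal gland for 7 of 11 and higher for 2. Wdr19, an IFT-A subunit, averaged 2.65 FPKM in the pineal gland, against 6.64 in the retina (-1.07, adjusted p = 5.8e-09), and Ttc21b, another one, 5.72 and 8.26 FPKM (-0.47, adjusted p = 0.001). Among genes that reached 1 FPKM in at least 1 library of both tissues, the 2 largest changes were in Ush1c, the Usher gene of harmonin (-2.03, adjusted p = 5.8e-10), and Anks6, a nephronophthisis gene (2.03, adjusted p = 4.3e-07). Of 63 genes 26 were higher and 11 lower in the retina than in mixed tissue (18.4% and 46.6% of all genes), led by Mak, a kinase of the photoreceptor cilium (2.89), and Fam161a, a protein of the connecting cilium (2.57). In the pineal gland 19 were higher and 17 lower than in mixed tissue (19.8% and 45% of all genes), among them Dfnb31, which encodes whirlin (2.46), and Ush1c (-2.33). Of the RFX factors, 4 of 6 were lower in the pineal gland than in the retina and none was higher (32% and 36.9% of all genes); Rfx3, a regulator of ciliary genes in the mouse, averaged 1.81 FPKM in the pineal gland, against 3.42 in the retina (-0.66, adjusted p = 1e-06).

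Over the day 16 of 58 of these genes passed in the pineal gland, 8 of them peaking by day and 8 by night, where 20.7% of all genes passed (14.1% by day and 6.61% by night). Ribc2, a motile cilium gene, had the largest fitted range, with 27.7, 2.40, 0.552, 0.511, 23.6 and 18.6 pineal FPKM from ZT1 to ZT23 (4.75, peak at ZT23.2). Ribc2, Cdh23 and Myo7a reached 1 FPKM in no retina library and entered the test through pineal libraries. The count of 16 includes them, and the values of Ribc2 are given as a description with no test. Fam161a had 15.6, 7.22, 7.66, 5.57, 26.2 and 27.5 FPKM (2.18 ± 0.34, peak at ZT22.1, adjusted p = 0.0045). The retina kept Ribc2 under 0.22 FPKM and Fam161a between 26.7 and 33.1 FPKM.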

How the data were processed

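The RNA of 14 libraries was made from 10 µg of total RNA by poly(A) selection, random priming and 16 PCR cycles, and read as paired ends of 101 bases with 6 libraries per lane, per the labels' protocols. The authors deposited FPKM values for each transcript, made with TopHat 1.3.1, Cufflinks 1.2.0 and the rn4 build, per the submitters' processing notes. Fragment counts were not used here, so the depth behind a value is unknown and the number of libraries limits the precision.

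FPKM were summed per gene ID, giving 16472 genes. Genes with at least 1 FPKM in at least 2 libraries were tested on the scale log2(FPKM + 1). The test was limma's (version 3.58.1, R 4.3.3, trend on) with Benjamini-Hochberg adjustment over all genes tested, 11656 between tissues (all 14 libraries) and 10416 over the day (pineal gland and retina, 12 libraries). Fold changes on this scale understate the changes of low genes. Rhythm was a cosine and a sine of 24 h per tissue, the tissue difference their interaction, and the late dark (ZT19 and ZT23) was set against the light (ZT1, ZT7 and ZT13). For these tests pineal gland and retina were fitted in the same model with a shared error estimate. Adjusted p under 0.05 was the threshold throughout. The fits were tested on simulated data.

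Members named were a set of core genes, plus in each tissue comparison the 6 largest changes in each direction and over the day the 8 largest past the threshold; others were chosen after their values were seen. The members and gene lists were chosen with earlier results of these data known. Alternatives were 2 other pseudocounts, 2 other filters, 2 scalings, no trend, the largest transcript per gene, a block for time of day, each tissue fitted alone and each library left out. Coordinates are rn4. The deposited starts were raised by 1 base, because end minus start was a multiple of 3 for 99.7% of 1193 olfactory receptor spans and end minus start plus 1 for 0.0838%. Promoters are from RefSeq GRCr8. Values of a few single genes are not reported here, and counts include them. The cell of origin was not separated in any library.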

Additional observations from a re-analysis of the deposited data

Results flagged for a closer look

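In 7 of 84 gene and tissue groups of 6 libraries, 1 library stood far from the other 5 by Dixon's test. For replicates chance gives about 1 group in 20, but these 6 libraries are different times of day. The share of flagged groups over all genes was not computed. Pineal ZT15 was the highest pineal library for 23.4% of all genes, and retina ZT7 the highest retina library for 51.2%. Pineal ZT15 was the highest pineal library for Tulp4 (19.6 FPKM, median 16.2) and for Rpgrip1l (4.28 FPKM, median 3.06). Retina ZT7 was the highest retina library for Unc119 (424 FPKM, median 340), Kif3a (18.3 FPKM, median 15.6) and Kif3c (13.7 FPKM, median 12.8). Retina ZT23 was the lowest for Cep70 (2.76 FPKM, median 4.10) and retina ZT19 the lowest for Cep97 (2.96 FPKM, median 3.88).

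The daily rhythm differed between pineal gland and retina by limma's interaction test for Nphp4 (adjusted p = 0.0267), Bbs1 (adjusted p = 0.038) and Bbs4 (adjusted p = 0.041). All 3 calls were lost when any of the 6 retina libraries was left out, with adjusted p of 0.0541 to 0.112 for Nphp4, 0.073 to 0.136 for Bbs1 and 0.0624 to 0.146 for Bbs4.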

How the results depend on the processing

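Of the calls in the report, 16 of 23 between pineal gland and retina, 17 of 24 between retina and mixed tissue, 11 of 22 between pineal gland and mixed tissue, 4 of 15 pineal rhythms and the 1 retinal rhythm passed in every alternative, and none of the 3 rhythm differences and not the 1 late dark call did. Quantile normalization gave 9 members higher in the pineal gland than in the retina, 35 higher and 0 lower in the retina than in mixed tissue, 33 higher and 3 lower in the pineal gland than in mixed tissue, 8 pineal rhythms (6 with a peak in the light), 2 retinal rhythms and 0 lower in the late dark. It also turned the sign for Cep78 (0.83) and Ift57 (0.43) in retina minus mixed tissue. In pineal gland minus mixed tissue it turned Bbs5 (0.65), Cep76 (0.21), Cep78 (0.68), Ift88 (0.84), Rpgr (0.87), Rpgrip1l (0.89) and Tctn1 (0.32). Median ratio scaling gave 24 higher and 3 lower in the pineal gland than in mixed tissue, and 2 higher and 0 lower in the late dark. Members lower in the retina than in mixed tissue numbered 2 with a pseudocount of 0.1 or 0.5, 3 with no filter or no trend. With no trend 1 rhythm difference passed. A filter of 3 FPKM gave 2 retinal rhythms and 2 members lower in the late dark, and no filter gave 0 lower. Fitting each tissue alone gave 4 pineal rhythms (2 with a peak in the light), 7 retinal rhythms and 0 lower in the late dark. The cause of these shifts was not tested.

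Alternatives added after seeing the data were the ZT7 and ZT19 libraries alone, and the retina without ZT1 and ZT19. The first gave 2 members higher in the pineal gland than in the retina, 0 lower in the retina than in mixed tissue, and 9 higher and 2 lower in the pineal gland than in mixed tissue. The second gave 8 pineal rhythms (6 with a peak in the light), 0 rhythm differences and 0 lower in the late dark.

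With each library left out in turn, counts ran from 5 to 6 higher and 17 to 19 lower (pineal gland against retina), 20 to 24 higher and 1 to 3 lower (retina against mixed tissue), and 13 to 16 higher and 3 to 8 lower (pineal gland against mixed tissue). They ran from 6 to 18 pineal rhythms (4 to 14 with a peak in the light), 1 to 4 retinal rhythms, 0 to 6 rhythm differences, and 0 to 1 higher and 0 to 7 lower in the late dark of the pineal gland. Without 1 mixed library the other is assumed to vary like the other tissues. With a replicate block for time of day, counts were 6 higher and 20 lower (pineal gland against retina), 23 and 2 (retina against mixed tissue) and 13 and 7 (pineal gland against mixed tissue). Deviations of libraries of the same time correlated at 0.0501 to 0.266 between pineal gland and retina, with ZT1 the lowest. Those of different times correlated at -0.224 to 0.185, and not every library correlated best with its own time. The times were not taken to pair the samples in the main tissue tests. An effect of time shared by the tissues therefore stayed in the error of those tests. The rhythm and late dark tests within 1 tissue use time itself and could have no such block. The rhythm difference could, as an alternative added after seeing the data: 2 members passed, Nphp4 (adjusted p = 0.0433) and Bbs5 (0.0454), and Bbs1 (0.0882) and Bbs4 (0.133) did not.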

Other observations

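Genes of Usher syndrome, whose products join the base of the photoreceptor cilium and the hair bundle of the inner ear, varied widely over the day in the pineal gland. Of 10 listed, 5 were tested and 4 passed, where 20.7% of all genes did. The 4 include Cdh23 and Myo7a, which reached 1 FPKM in no retina library and entered the test through pineal libraries. The values of Cdh23 and Myo7a are therefore given as a description with no test. Dfnb31, which encodes the scaffold whirlin, had 98.2, 38.8, 30.2, 34.1, 86.4 and 139 FPKM in the pineal libraries from ZT1 to ZT23, and 24.9 to 35.6 FPKM in the retina libraries. Its 3 libraries from ZT19 to ZT1 were the highest. The fitted range was 2.25 ± 0.16 with a peak at ZT23 (limma, adjusted p = 5.7e-05), and the rhythm differed from that of the retina (adjusted p = 0.0047). Cdh23, a tip-link cadherin, had 9.6, 4.56, 1.01, 0.626, 0.907 and 4.66 pineal FPKM, with under 0.12 FPKM in every retina library (fitted range 2.73, peak at ZT3.27). Myo7a, an unconventional myosin, had 4.76, 2.05, 0.853, 1.21, 3 and 4.22 pineal FPKM, with 0.211 to 0.343 FPKM in the retina libraries (fitted range 1.59, peak at ZT0.174). Effects of leaving out libraries were not computed for these genes.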
